A study of Mus musculus with 12 samples.

Results

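The genotype by diet interaction asked which responses of the mouse intestine to a high-fat diet (HFD) differed when the epithelium lacked Ppara. For each gene it was the log2 change from chow to HFD in PparaΔIE mice minus the same change in Pparafl/fl mice, so a negative value means a smaller rise or a larger fall in PparaΔIE. All 12 of 12 libraries of the series entered it, and 17602 of 47643 genes had enough counts to be tested. The groups were Pparafl/fl on chow, Pparafl/fl on HFD, PparaΔIE on chow and PparaΔIE on HFD, with 3 libraries each. Pparafl/fl mice carry Ppara alleles flanked by recombinase target sites and are the control genotype, called fl/fl here. PparaΔIE, called ΔIE here, is the usual notation for deletion in intestinal epithelium, while the sources used here do not give the recombinase line, the exons removed or the stretch of intestine. All mice were C57BL/6 males of 7 to 8 weeks, and each diet (chow, or the feed labelled 60% HFD) was given over 10 days.

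PPARA is a transcription factor of the nuclear receptor family that is switched on by fatty acids and sits on DNA paired with a retinoid X receptor. In the small intestine it is known for raising genes of fatty acid binding, peroxisomal and mitochondrial oxidation and ketone body synthesis when dietary fat arrives. Its usual binding element is a direct repeat of a short hexamer with 1 base between the copies, called DR1.

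Libraries held 33621040 to 53959405 expected counts, so 1 CPM (the unit of counts scaled to library size, with TMM factors) stood for 32.7 to 52.8 counts. Epithelial genes were high in every group, with Epcam group means of 1706 to 1964 CPM and Vil1 means of 2847 to 3189 CPM, and only 1 of 11 pancreatic acinar genes passed the filter on low counts. The replicates were not alike in spread: the biological coefficient of variation was 0.0583 in fl/fl chow and 0.140 to 0.151 in the other groups. Across 146 immunoglobulin V genes, which reflect the B cell clones of a mouse, fl/fl chow libraries correlated at 0.909 to 0.964 and libraries of different groups at 0.523 to 0.842 (Pearson's r across genes, which are not independent). ΔIE chow 3 correlated at 0.911 with ΔIE chow 1 and at 0.893 with ΔIE chow 2, while ΔIE chow 1 and 2 correlated at 0.702. In the same way fl/fl chow 1 correlated at 0.961 and 0.964 with fl/fl chow 2 and 3, which correlated at 0.909. These libraries, fl/fl chow 1 and ΔIE chow 3, lay between the other libraries of their group, and the main counts are also given without them. Nothing in the labels ties each library to its own mouse, so p-values measure the spread between the samples at hand and that spread may be technical. A score of genes of the proximal small intestine (mean centred log2 level over 11 genes) ran from -0.73 to -0.68 in fl/fl chow, from 0.277 to 0.996 in fl/fl HFD, from -0.81 to 0.01 in ΔIE chow and from -0.08 to 0.47 in ΔIE HFD. A score of 14 colon genes ran from 0.257 to 0.436 in fl/fl chow and from -0.72 to -0.53 in fl/fl HFD. In ΔIE it ran from 0.328 to 0.965 on chow and from -0.484 to -0.343 on HFD, without overlap either. A score of 11 distal ileum genes was also higher on HFD in fl/fl, from -0.218 to -0.164 on chow and from 0.011 to 0.228 on HFD. In ΔIE it ran from -0.205 to 0.066 on chow and from -0.095 to 0.255 on HFD, with overlap. Effects of diet and of the stretch sampled therefore cannot be told apart in the response of either genotype, nor in the interaction. Of the 11 proximal genes 4 rose with HFD in fl/fl by the test, and 1 is also a PPARA target. Fits below with the proximal score as a covariate therefore also take out diet response. A smaller value in such a fit cannot tell position from diet.

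Ppara, the targeted gene (chromosome 15, 85734983 to 85802819, plus strand, mm10), measured 19.2, 18.1 and 22.0 CPM in fl/fl chow and 39.3, 36.6 and 33.7 CPM in fl/fl HFD. In ΔIE it measured 8.42, 15.6 and 12.98 CPM on chow and 11.4, 11.1 and 17.3 CPM on HFD. Every fl/fl HFD library lay above every fl/fl chow library, whereas the ΔIE diets overlapped. Ppara rose with HFD in fl/fl (log2 0.89, SE 0.21, adjusted p = 0.019) but did not pass in ΔIE (log2 0.10, SE 0.22, adjusted p = 0.82). The interaction was -0.78 (95% interval -1.44 to -0.13, adjusted p = 0.739) and did not pass the test across all genes. With the proximal score as a covariate the fl/fl response of Ppara was -0.02 and the interaction -0.23. These gene-level counts also take in undeleted exons and non-epithelial cells.

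Of 17602 genes 1 passed the interaction test at adjusted p under 0.05 (0.00568% of genes tested), by edgeR's quasi-likelihood test. It was Ighv1-22, an immunoglobulin heavy chain V gene, named here after its values were seen. Ighv1-22 measured 0.753, 0.492 and 1.08 CPM in fl/fl chow and 1.89, 1.79 and 1.77 CPM in fl/fl HFD, and 2.93, 2.71 and 2.87 CPM in ΔIE chow and 1.25, 1.29 and 0.917 CPM in ΔIE HFD. Every fl/fl HFD library lay above every fl/fl chow library, and every ΔIE HFD library lay below every ΔIE chow library. The interaction was -2.49 (SE 0.34, adjusted p = 0.0463). At an unadjusted p under 0.05, called the unadjusted range here, there were 1116 genes (6.34%), 459 higher and 657 lower in ΔIE (2.61% and 3.73%). With no interaction at any gene, a share of about 0.05 of the tests would fall in this range. Counts of list members in this range, given below, stand beside these shares. Their counts called by diet stand beside the shares of all genes in the next paragraph. Of the 146 immunoglobulin V genes tested, 34 (23.3%) were among these 1116, and 8 of the 20 genes with the smallest p were immunoglobulin V genes. DESeq2 called 57 genes and limma voom with weights by group called 0. Leaving out fl/fl chow 1, fl/fl chow 2, ΔIE chow 2, ΔIE chow 3 or fl/fl HFD 2 left 0 calls. Without ΔIE chow 1 or without fl/fl HFD 1 there were 19 calls each, without fl/fl HFD 3 there were 7, and without ΔIE HFD 3 there were 4. Without ΔIE HFD 1 or ΔIE HFD 2 the single call was another gene (Trpc1 and Ighv1-5). Ighv1-22 was called in 5 of these 12 fits. Genes described in what follows that gained a call this way were Fabp1 and Apoa4 without fl/fl HFD 3, Mt1, Grem1, Dsc3 and 5 smooth muscle genes without fl/fl HFD 1, and Cyp3a11, Gimd1, Rnf13, St3gal6, Gsta4 and Adh1 without ΔIE chow 1. The 95% interval of the interaction had a median half-width of 0.45 (log2). For a typical gene an estimate smaller than this did not reach an unadjusted p under 0.05, even before adjustment over all genes. A p above the threshold does not show that the genotypes responded alike.

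In both genotypes many genes differed between the chow and HFD libraries, a difference called the diet response here. Chow and HFD libraries did not overlap for 37.9% of genes in fl/fl and 25.8% in ΔIE. In fl/fl 2353 genes changed (13.4%), 1197 higher and 1156 lower (6.8% and 6.57%), and in ΔIE 1444 changed (8.2%), 606 higher and 838 lower (3.44% and 4.76%). The 2 responses share no library. Of these calls 847 were common, 313 higher and 532 lower in both, which was 35.9% of the fl/fl calls and 58.5% of the ΔIE calls in the same direction. Only Ighv1-22 and Dsc3, a desmosomal cadherin with group means under 1 CPM, were called in opposite directions. Of the fl/fl calls 94.6% had the same sign in ΔIE, and of the ΔIE calls 96.7% had the same sign in fl/fl. Across all 17602 genes the log2 responses correlated at r = 0.44 (Spearman's rho 0.531), a description across genes of responses estimated with unequal spread. Genes called higher in fl/fl had a median log2 response of 0.64 there and 0.32 in ΔIE, and genes called lower had -0.47 and -0.36. In the reverse choice, genes called higher in ΔIE had a median of 0.57 in ΔIE and 0.40 in fl/fl, and genes called lower -0.49 and -0.39. In each choice the genotype that selected the genes had the larger median. The fl/fl count was 458 and the ΔIE count 185 without fl/fl chow 1 and ΔIE chow 3 together, and with the proximal score as a covariate they were 0 and 227. That score did not overlap between the fl/fl diets, so a fall of the fl/fl count with it was to be foreseen. Single libraries moved them too. The fl/fl count was 896, 1150 and 895 without fl/fl chow 1, 2 or 3, 1300 without fl/fl HFD 2 and 1198 without fl/fl HFD 3. The ΔIE count was 704, 2551 and 451 without ΔIE chow 1, 2 or 3, 856 without ΔIE HFD 1 and 738 without ΔIE HFD 2.

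**Figure D1:**
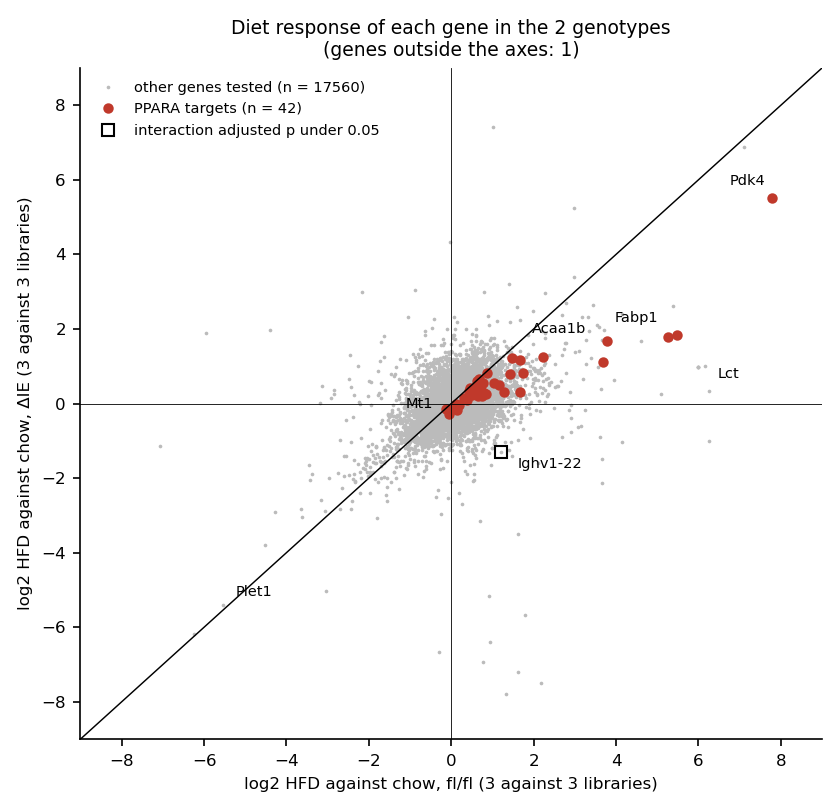
Log2 change from chow to HFD of each gene tested in fl/fl (horizontal axis) and in ΔIE (vertical axis), 3 against 3 libraries each; the line marks equal responses, red points are the 42 PPARA targets tested, and 1 gene lies outside the axes. All 42 targets, a list chosen with earlier results of these data known, lie below the line. The square marks Ighv1-22, the gene that passed the interaction test.

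Of a list of 47 PPARA targets, 42 passed the filter on low counts. Cyp4a10, Cyp4a14, Cyp4a31, Fgf21 and Ucp3 did not. In fl/fl 34 of the 42 rose with HFD and 0 fell, with a median log2 response of 0.66. In ΔIE 13 rose and 0 fell, with a median of 0.36. The interaction estimate was below 0 for 42 of 42, against 8970 of 17602 genes tested, with a median of -0.27 against -0.01 over all genes. None passed the interaction test, and 14 were lower at an unadjusted p under 0.05. These targets move together and share their libraries, so their number is not a number of independent observations. The list was also chosen with earlier results of these data known, so its count beside all genes is a description only. DESeq2 called 3 of them lower (Fabp1, Acaa1b and Creb3l3). The median lay between -0.47 and -0.20 over 22 other settings, at -0.20 with the proximal score as a covariate and at -0.30 without fl/fl chow 1 and ΔIE chow 3. A score of the 42 targets ran from -0.48 to -0.36 over all chow libraries, from 0.46 to 0.84 in fl/fl HFD and from -0.18 to 0.35 in ΔIE HFD, so the HFD genotypes did not overlap.

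Fabp1 encodes the liver-type fatty acid binding protein of enterocytes (chromosome 6, 71199827 to 71205023, plus strand, mm10). It had the largest negative interaction among the targets and is also a marker of the proximal small intestine. Its RefSeq promoter is shown because it held the list's only DR1-like match. The 250 bases before the RefSeq start (chr6:71199629-71199878, plus strand, GRCm38.p6) read as follows, with the match in capitals.
Fabp1: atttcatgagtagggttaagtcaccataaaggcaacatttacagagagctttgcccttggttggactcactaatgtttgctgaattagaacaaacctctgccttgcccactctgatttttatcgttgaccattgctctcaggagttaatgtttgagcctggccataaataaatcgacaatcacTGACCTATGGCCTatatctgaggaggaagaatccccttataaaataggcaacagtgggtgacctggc
The motif searched was AGGNCANAGGNCA on both strands, and the match lies on the minus strand, 67 to 55 bases before the RefSeq start. That start lies 52 bases inside the gene as given above from the GENCODE annotation, so the match is 15 to 3 bases before the gene's GENCODE start. It occurred in 1 of the 34 targets with a RefSeq promoter and in 111 of 32851 promoters (0.338%). The stricter AGGTCANAGGTCA, every match of which the looser motif also covers, occurred in 0 of the 34 and in 11 promoters (0.0335%). A match is a description of letters, and its absence in this window says nothing of binding elsewhere.

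Fabp1 measured 1.98, 2.03 and 2.42 CPM in fl/fl chow and 156, 104 and 29.8 CPM in fl/fl HFD. In ΔIE it measured 3.70, 3.71 and 3.83 CPM on chow and 9.06, 18.0 and 13.2 CPM on HFD. Every HFD library was above every chow library of its genotype, and fl/fl HFD 3 was the lowest of its group in Fabp1 and in the proximal score. Fabp1 rose in fl/fl by 5.48 (SE 0.63, adjusted p = 0.0018), and its ΔIE response of 1.84 (SE 0.58, adjusted p = 0.091) did not pass. The interaction was -3.64 (95% interval -5.54 to -1.74, adjusted p = 0.482), and -2.10 with the proximal score as a covariate, although Fabp1 is itself 1 of the 11 genes of that score. DESeq2 called it (adjusted p = 9.7e-04), as did edgeR without fl/fl HFD 3.

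Among the other genes of fatty acid uptake and binding, Fabp2, the intestinal-type binding protein, had 2085, 2226 and 2052 CPM in fl/fl chow and 6258, 6050 and 4862 CPM in fl/fl HFD. In ΔIE it had 2361, 1949 and 2109 CPM on chow and 3161, 3139 and 4742 CPM on HFD. It rose in both genotypes, by 1.43 in fl/fl (SE 0.15, adjusted p = 2.0e-04) and by 0.78 in ΔIE (SE 0.15, adjusted p = 0.0081). The interaction of -0.65 (95% interval -1.11 to -0.19) did not pass (adjusted p = 0.677). The scavenger receptor gene Cd36 (interaction -0.96), the acyl-CoA synthetase gene Acsl3 (-0.58) and the fatty acid transporter gene Slc27a2 (-0.59) were lower at an unadjusted p under 0.05 as well. With the proximal score as a covariate the value of Slc27a2 was -0.001. Of the 14 genes of this list 5 were in that range, 6 rose and 1 fell in fl/fl, and 1 rose and 1 fell in ΔIE, with an interaction median of -0.21 that was -0.11 with the proximal score and -0.36 with a smooth muscle score as a covariate. Slc27a4, Acsl5 and Dbi, which bind or activate fatty acids, had interactions of -0.07, -0.14 and -0.11.

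Peroxisomal oxidation shortens very long fatty acids, and its inducible thiolase gene Acaa1b (chromosome 9, 119148023 to 119157093, minus strand, mm10) showed the largest interaction of its list. Acaa1b measured 0.867, 0.724 and 1.17 CPM in fl/fl chow and 17.4, 13.1 and 7.85 CPM in fl/fl HFD, and 0.560, 1.05 and 0.755 CPM in ΔIE chow and 2.53, 1.38 and 3.73 CPM in ΔIE HFD. It rose in both genotypes without overlap between diets, and all ΔIE HFD libraries lay below all fl/fl HFD libraries. The rise was 13.6-fold in fl/fl (adjusted p = 3.4e-04) and 3.20-fold in ΔIE (adjusted p = 0.034). The interaction was -2.09 (95% interval -3.36 to -0.82, adjusted p = 0.583), and -1.17 with the proximal score. Of 23 peroxisomal genes 11 rose in fl/fl and 7 in ΔIE, and 6 were lower in the interaction at an unadjusted p under 0.05. Cat, the catalase gene, and Scp2, a sterol carrier and thiolase gene, had interactions of -0.54 and -0.33. Pex11a, a peroxisome division gene, rose by 0.62 in fl/fl and by 0.61 in ΔIE, with an interaction of -0.01 (95% interval -0.31 to 0.30).

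Mitochondrial beta-oxidation genes gave smaller estimates. Of 21 genes 12 rose and 1 fell in fl/fl, and 4 rose and 1 fell in ΔIE, while 0 were in the unadjusted range of the interaction and the median was -0.13 (-0.07 with the proximal and -0.37 with the muscle score). Cpt1a, the carnitine palmitoyltransferase that admits fatty acids to mitochondria, rose by 0.67 in fl/fl and 0.65 in ΔIE, with an interaction of -0.03 (95% interval -0.46 to 0.40). The carnitine carrier gene Slc25a20 rose by 0.87 and 0.81. Pdk4, the kinase that turns off pyruvate oxidation, stood near 0 on chow (0.0267 to 0.369 CPM over 6 libraries) and reached 27.02, 26.9 and 18.98 CPM in fl/fl HFD and 13.8, 0.788 and 12.5 CPM in ΔIE HFD. It rose in both genotypes (7.78 and 5.52), and the interval of its interaction (-7.48 to 2.95) was too wide to tell the responses apart.

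**Figure D2:**
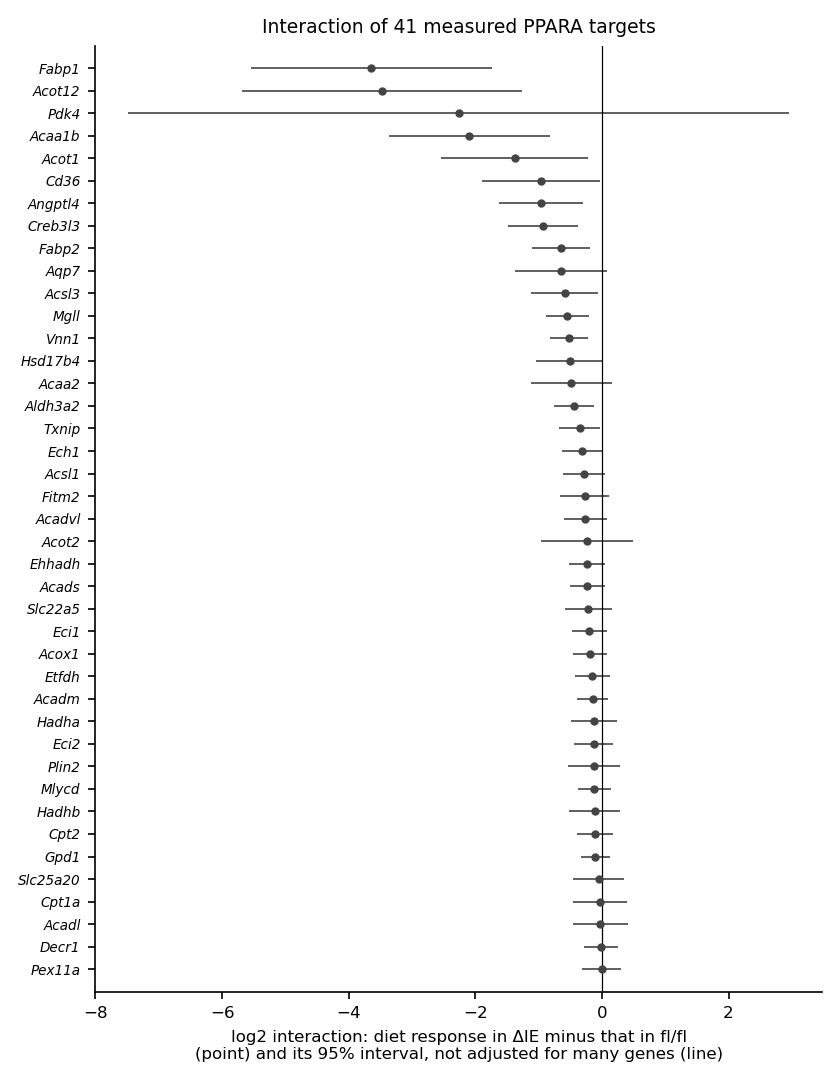
Log2 interaction (points) of 41 of the 42 PPARA targets tested with its 95% interval (lines), not adjusted for the number of genes; values left of 0 mean a smaller rise or a larger fall with HFD in ΔIE. Estimates run from -3.64 for Fabp1 to -0.01 for Pex11a, and the intervals of 13 of the targets shown exclude 0.

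Of the 29 genes of chylomicrons and triglycerides tested, 5 are themselves PPARA targets, among them Creb3l3, Angptl4 and Mgll. Creb3l3, a liver and intestine transcription factor that promotes triglyceride clearance (chromosome 10, 81084324 to 81098874, minus strand, mm10), measured 83.2, 90.5 and 71.3 CPM in fl/fl chow and 260, 305 and 260 CPM in fl/fl HFD. In ΔIE it measured 81.2, 120 and 104 CPM on chow and 193, 131 and 215 CPM on HFD. No library of one diet reached the other diet within a genotype. Creb3l3 rose by 1.75 in fl/fl (adjusted p = 3.4e-04) and by 0.82 in ΔIE (adjusted p = 0.020), with an interaction of -0.93 (95% interval -1.49 to -0.37, adjusted p = 0.583). Angptl4, an inhibitor of lipoprotein lipase, rose by 2.22 and 1.26 (interaction -0.96), and Mgll, monoacylglycerol lipase, by 0.75 in fl/fl with a value of 0.21 in ΔIE that did not pass. Apoa4, an apolipoprotein of chylomicrons, rose by 3.34 and 1.93 (interaction -1.41), and edgeR called its interaction without fl/fl HFD 3. With the proximal score, of which Apoa4 is a member, its interaction was -0.49. In this list 14 rose and 1 fell in fl/fl, 5 rose and 2 fell in ΔIE, and 9 were lower in the interaction at an unadjusted p under 0.05 (median -0.16). Vnn1, a pantetheinase gene and another member of the target list, measured 125, 135 and 118 CPM in fl/fl chow and 215, 247 and 192 CPM in fl/fl HFD. In ΔIE the values were 133, 132 and 134 CPM on chow and 138, 171 and 171 CPM on HFD (interaction -0.52, 95% interval -0.82 to -0.21, and -0.31 with the proximal score). Omega-oxidation, which starts at the methyl end of a fatty acid, had 5 genes tested, all with estimates below 0 (median -0.54, and -0.19 with the proximal or -0.27 with the muscle score as a covariate). Adh1 (-0.69, and -0.45 and -0.27 with these scores, the first of which holds Adh1), Cyp4f16 (-0.55) and Aldh3a2 (-0.44) were in the unadjusted range.

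Of 11 genes of the PPAR system, which holds the receptors, their partners and coregulators, Ppara was the only one at an unadjusted p under 0.05. Pparg, the fat cell type receptor, fell by 1.11 in fl/fl and by 1.40 in ΔIE on the log2 scale (interaction -0.29, 95% interval -0.68 to 0.10). Ppard, Rxra and Ppargc1a had interactions of 0.25, -0.07 and 0.00.

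Genes of cholesterol synthesis gave estimates of the other sign. Of 24 genes 17 fell with HFD in fl/fl and 6 in ΔIE, with medians of -0.57 and -0.28. The interaction was above 0 for 23 of 24 (median 0.24), 2 were higher at an unadjusted p under 0.05 and none passed. Pmvk, phosphomevalonate kinase, measured 58.8, 57.0 and 56.9 CPM in fl/fl chow, 36.6, 36.4 and 35.3 CPM in fl/fl HFD, 49.0, 28.7 and 39.0 CPM in ΔIE chow and 30.2, 33.5 and 38.1 CPM in ΔIE HFD. Only the fl/fl diets were apart, and the interaction was 0.47 (95% interval 0.03 to 0.92, adjusted p = 0.769), and 0.30 with the proximal or 0.21 with the muscle score. A score of the list ran from 0.33 to 0.35 in fl/fl chow, and it was 0.22, -0.20 and 0.03 in ΔIE chow 1, 2 and 3. The list's median was 0.06 with the proximal and 0.11 with the muscle score.

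Detoxification genes under the receptors PXR and CAR had the lowest median interaction of the 46 lists. All 16 estimates were below 0 (median -0.70), 9 were lower at an unadjusted p under 0.05 and none passed. In fl/fl 5 rose and 0 fell, and in ΔIE 0 rose and 3 fell. Ces2a, a carboxylesterase, measured 115, 116 and 122 CPM in fl/fl chow, 180, 226 and 189 CPM in fl/fl HFD, 189, 251 and 222 CPM in ΔIE chow and 247, 190 and 243 CPM in ΔIE HFD. Only fl/fl chow stood apart, below the other 3 groups (interaction -0.71, 95% interval -1.08 to -0.35, adjusted p = 0.39), with a value of -0.47 with the muscle score. DESeq2 called Ces2a (adjusted p = 0.034). Cyp3a11, the main inducible drug-metabolising cytochrome P450, measured 3.49, 3.27 and 3.45 CPM in fl/fl chow and 2.19, 3.57 and 2.18 CPM in fl/fl HFD, but 7.97, 34.5 and 23.7 CPM in ΔIE chow and 3.83, 3.77 and 4.07 CPM in ΔIE HFD. On HFD it fell in ΔIE (log2 -2.50, adjusted p = 0.012), and its interaction was -2.14 (95% interval -3.60 to -0.69), -0.78 with the proximal and -0.73 with the muscle score. The list score was -0.11, 0.58 and 0.36 in ΔIE chow 1, 2 and 3, in the same order as their proximal scores of -0.81, 0.01 and -0.16, and the list median was -0.35 with the proximal score as a covariate. Among 14 NRF2 targets, which answer oxidative stress, 6 were lower and 1 higher in the unadjusted range. The glutathione transferase gene Gsta4 (-1.01, and -0.61 with the proximal score) and the cystine transporter gene Slc7a11 (1.22) had the smallest p of the lower and of the higher genes. DESeq2 called Gsta4 (adjusted p = 0.032). Reads of Cyp3a, Cyp2c and Ces2 genes can be shared among near copies.

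Mt1, a metallothionein gene that binds zinc and copper (chromosome 8, 94179082 to 94180327, plus strand, mm10), had the smallest interaction p among the genes that the naming rule allows, which leaves out immunoglobulin genes. It measured 48.3, 41.6 and 50.5 CPM in fl/fl chow and 20.01, 13.2 and 19.6 CPM in fl/fl HFD, and 249, 240 and 242 CPM in ΔIE chow and 175, 168 and 195 CPM in ΔIE HFD. Every ΔIE library lay above every fl/fl library, and HFD lay below chow in each genotype. On the log2 scale Mt1 fell by 1.41 in fl/fl (SE 0.13, adjusted p = 1.3e-04), while in ΔIE it fell by 0.44 (SE 0.12, adjusted p = 0.042). The interaction was 0.97 (SE 0.18, 95% interval 0.58 to 1.35) and did not pass (adjusted p = 0.326). DESeq2 called it (adjusted p = 7.4e-04), as did edgeR without fl/fl HFD 1. Mt2, its neighbour on chromosome 8, measured 14.1, 12.3 and 15.4 CPM in fl/fl chow, 3.16, 1.44 and 1.88 CPM in fl/fl HFD, 15.03, 23.2 and 20.98 CPM in ΔIE chow and 3.06, 1.997 and 3.33 CPM in ΔIE HFD. Mt2 fell in both genotypes (-2.69 and -2.82), and its interaction of -0.13 had a 95% interval of -0.95 to 0.69. The difference between the interactions of Mt1 and Mt2 was not tested. Of 11 other zinc genes 0 were in the unadjusted range. S100g, the vitamin D-induced calcium binder of enterocytes, measured 6.98, 7.36 and 7.38 CPM in fl/fl chow and 4.82, 4.04 and 4.58 CPM in fl/fl HFD, while ΔIE stayed between 8.10 and 10.1 CPM on both diets. It fell in fl/fl only by the test (-0.69, adjusted p = 0.0023), and its interaction was 0.66 (adjusted p = 0.39).

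**Figure D3:**
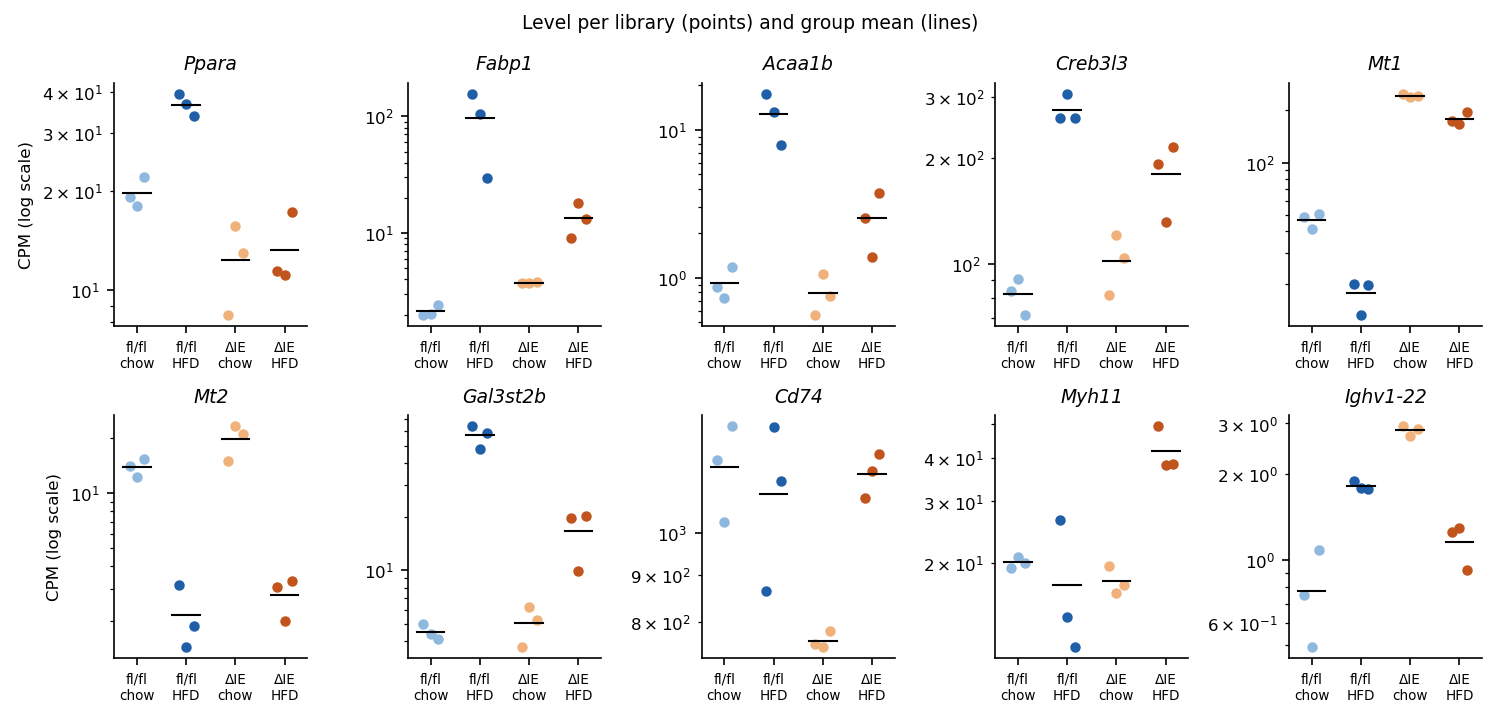
CPM of 10 genes in each library (points, log axis) with group means (lines), in the order fl/fl chow, fl/fl HFD, ΔIE chow and ΔIE HFD. Fabp1 and Acaa1b are highest in fl/fl HFD, Mt1 is higher in all ΔIE libraries, Mt2 is low on HFD in both genotypes, and Ighv1-22 moves in opposite directions.

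The rule for named genes gave the 8 genes with the smallest p in each direction, none of which passed the interaction test (adjusted p from 0.326 to 0.39). The DESeq2 Wald test called all of these genes except Nfkbiz (DESeq2 adjusted p = 0.0508). Since these genes were chosen by the interaction, their diet responses are given as a description: the 8 lower genes rose in fl/fl, and 1 of them, Gal3st2b, also rose in ΔIE. Rnf13, a ubiquitin ligase of the endolysosome, measured 47.3, 50.8 and 47.3 CPM in fl/fl chow, 67.8, 65.3 and 63.3 CPM in fl/fl HFD, 48.6, 53.2 and 51.8 CPM in ΔIE chow and 48.7, 48.2 and 52.0 CPM in ΔIE HFD. Fl/fl HFD stood above the other 9 libraries (interaction -0.48, 95% interval -0.68 to -0.28). Gal3st2b, which adds sulfate to galactose of mucin-type sugars, measured 4.97, 4.40 and 4.15 CPM in fl/fl chow and 64.1, 47.9 and 58.8 CPM in fl/fl HFD, against 3.70, 6.22 and 5.28 CPM in ΔIE chow and 19.7, 9.85 and 20.2 CPM in ΔIE HFD. It rose by 3.66 in fl/fl and 1.71 in ΔIE (interaction -1.95, 95% interval -2.80 to -1.10, and -1.88 with the proximal score). Renbp, N-acetylglucosamine epimerase, rose 2.36-fold in fl/fl with a value of 1.02-fold in ΔIE (interaction -1.20, and -1.93 with the muscle score). The retinol dehydrogenase gene Rdh1 (-1.45), Klhdc7a (-1.75), the sialyltransferase gene St3gal6 (-0.99) and the secreted proteoglycan gene Tsku (-1.73) were also among them, and with the proximal score St3gal6 was at -0.59 and Tsku at -0.93. Gip, the incretin of enteroendocrine cells that answers dietary fat, measured 1.28, 1.07 and 1.57 CPM in fl/fl chow, 4.002, 3.498 and 2.02 CPM in fl/fl HFD, 2.96, 5.16 and 3.74 CPM in ΔIE chow and 3.36, 3.01 and 3.39 CPM in ΔIE HFD. Fl/fl chow was the low group, and the interaction was -1.55, or -0.81 with the proximal score.

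Of the 8 higher genes, Mt1 is given above. Mcpt1, a mucosal mast cell protease, and Grem1, a BMP antagonist of the muscle layers, rose in ΔIE only by the test (1.57 and 1.72), with interactions of 2.07 and 1.64. Grem1 measured 3.12, 3.13 and 3.18 CPM in fl/fl chow, 5.10, 2.08 and 2.84 CPM in fl/fl HFD, 1.92, 1.40 and 1.45 CPM in ΔIE chow and 6.31, 5.12 and 4.34 CPM in ΔIE HFD. With a smooth muscle score as a covariate its interaction was 0.41, and that of Mcpt1 was 1.27. The transporter gene Abca13 (2.05), the interferon-induced gene Mx2 (1.14) and Nfkbiz, an atypical inhibitor of NF-kappa-B (0.52), fell in fl/fl. So did the ADP-ribosyltransferase gene Parp3 (0.82) and the dynein gene Dnah8 (0.53). Of these 5 only Nfkbiz also fell in ΔIE. Mx2 is annotated as a polymorphic pseudogene. With the muscle score Abca13 was at 1.09 and Dnah8 at 0.30.

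MHC class II genes, which present antigen and are made by epithelium and immune cells, all had estimates above 0. The median over 9 genes was 0.61, 6 were higher at an unadjusted p under 0.05 and none passed. Cd74, the invariant chain, measured 1204, 1028 and 1309 CPM in fl/fl chow, 865, 1308 and 1140 CPM in fl/fl HFD, 757, 751 and 782 CPM in ΔIE chow and 1093, 1170 and 1220 CPM in ΔIE HFD. ΔIE chow was below all other libraries, and Cd74 rose in ΔIE (0.60, adjusted p = 0.013) with a fl/fl value of -0.10 that did not pass. Its interaction was 0.70 (95% interval 0.31 to 1.09, adjusted p = 0.482), and 1.19 with the muscle score. H2-DMa, H2-DMb1 and the class II activator gene Ciita fell in fl/fl, and none of these changed in ΔIE by the test. Of 14 T cell markers, 12 had estimates above 0 (median 0.34, and 0.13 with the proximal score). Only 1 of the 14, Cd5, was in the unadjusted range (1.13), which held 6.34% of all genes tested. Of 11 markers of B cells, which themselves carry class II, and of plasma cells, 8 had estimates above 0 (median 0.59), 0 were in the unadjusted range and 0 changed in either genotype. Their score ran from -0.03 to 0.24 in fl/fl chow, from -0.22 to 0.48 in fl/fl HFD, from -0.47 to -0.05 in ΔIE chow and from -0.34 to 0.42 in ΔIE HFD, so that ΔIE chow was below fl/fl chow here as for class II. The B cell genes Cd79a and Ms4a1 had interactions of 0.65 and 0.66, and the plasma cell genes Jchain and Igha of -0.28 and -0.21. With the muscle score the B and plasma cell median was -0.31. The part of these cells in the class II values was not tested. The list median of class II stayed between 0.46 and 0.71 over 22 other settings.

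Antiviral and antimicrobial genes fell in both genotypes. Of 26 interferon-induced genes 20 fell in fl/fl and 13 in ΔIE, with medians of -1.10 and -0.81, and 0 were in the unadjusted range of the interaction (median 0.23, from -0.32 to 0.98). The interferon median was -0.008 with the proximal score. Of 21 antimicrobial genes of the epithelium 14 fell and 1 rose in fl/fl, and 10 fell in ΔIE. Their interaction median of 0.22 turned to -0.10 with the proximal and to -0.21 with the muscle score. Reg3b and Reg3g, lectins that kill bacteria, fell by 2.04 and 2.10 in fl/fl and by 1.46 and 1.47 in ΔIE on the log2 scale, with interactions of 0.57 and 0.64 that did not pass. Reg4, a relative of the Reg3 genes, was the only 1 of the 21 in the unadjusted range (-1.04), which held 6.34% of all genes tested.

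Lists of cell types differed in sign. Bulk tissue cannot tell a change in the number of cells of a type from a change in RNA per cell. Smooth muscle genes had the largest median of all lists, with 10 of 10 estimates above 0 (median 1.44) and 8 in the unadjusted range. In ΔIE 4 rose (Synm, Myl9, Myh11 and Mylk), and in fl/fl 0 changed. Myh11, the muscle myosin, averaged 20.1 and 17.3 CPM in fl/fl chow and HFD, and 17.8 and 41.9 CPM in ΔIE chow and HFD. The smooth muscle score was 0.16, -0.57 and -0.80 in the fl/fl HFD libraries and 0.78, 0.41 and 0.44 in the ΔIE HFD libraries, so the genotypes did not overlap on HFD. EdgeR called Synm, Myh11, Myl9, Cnn1 and Des without fl/fl HFD 1, and DESeq2 called Synm, Myh11, Myl9 and Acta2 with all libraries. With that score as a covariate the list's median was -0.03, by construction, and 67 genes in all were called. The part of unequal muscle content in other interactions was not tested beyond this covariate.

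**Figure D4:**
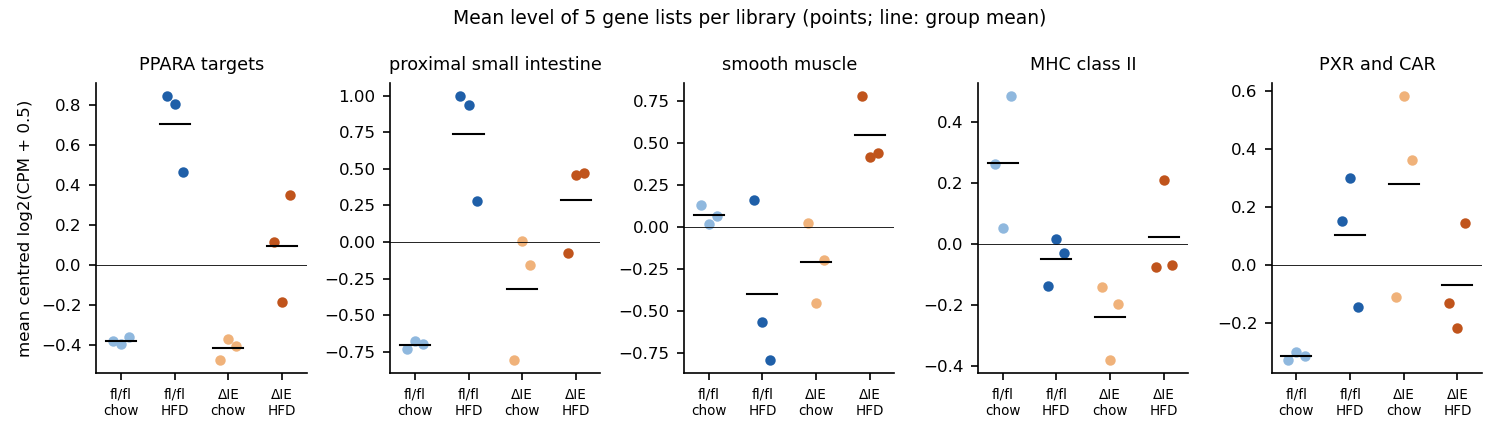
Mean centred log2(CPM + 0.5) over the genes of 5 lists in each library (points), with group means (lines). Targets of PPARA and proximal genes are highest in fl/fl HFD, and smooth muscle genes are highest in ΔIE HFD.

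Tuft cells, which sense parasites and metabolites, had 10 of 10 estimates below 0 (median -0.48). In fl/fl 3 of these genes rose (Pou2f3, Ptgs1 and Dclk1) and in ΔIE 0 changed. Trpm5, their taste channel, measured 9.05, 8.23 and 11.4 CPM in fl/fl chow, 10.3, 11.98 and 14.6 CPM in fl/fl HFD, 15.5, 18.4 and 17.2 CPM in ΔIE chow and 13.9, 12.3 and 15.9 CPM in ΔIE HFD (interaction -0.64, adjusted p = 0.673). With the muscle score as a covariate Trpm5 was at -0.11 and the tuft median at -0.08. Paneth cell genes had 15 of 16 estimates below 0 (median -0.32), and 8 rose and 1 fell in fl/fl while 0 changed in ΔIE. The defensin gene Defa20 measured 448, 483 and 397 CPM in fl/fl chow, 806, 731 and 674 CPM in fl/fl HFD, 493, 447 and 399 CPM in ΔIE chow and 405, 330 and 565 CPM in ΔIE HFD, so that fl/fl HFD stood above the other 9 libraries (interaction -0.78, adjusted p = 0.594). Reads of defensins are shared among near copies, and the list's median was -0.05 with the proximal and -0.73 with the muscle score. Endothelial genes had 10 of 10 estimates below 0 (median -0.31), led by Kdr, the VEGF receptor (-0.69), and their median was -0.51 with the muscle score. Goblet cell genes had 11 of 12 below 0 (median -0.20, and -0.32 with the muscle score), with 4 fallen in fl/fl and 7 in ΔIE. Retinoid genes had 12 of 12 below 0 (median -0.23), among them Rbp2, the retinol carrier of enterocytes, which rose by 1.72 in fl/fl and by 0.92 in ΔIE (interaction -0.80). With the proximal score the interaction of Rbp2 was -0.31 and the retinoid median -0.12.

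**Figure D5:**
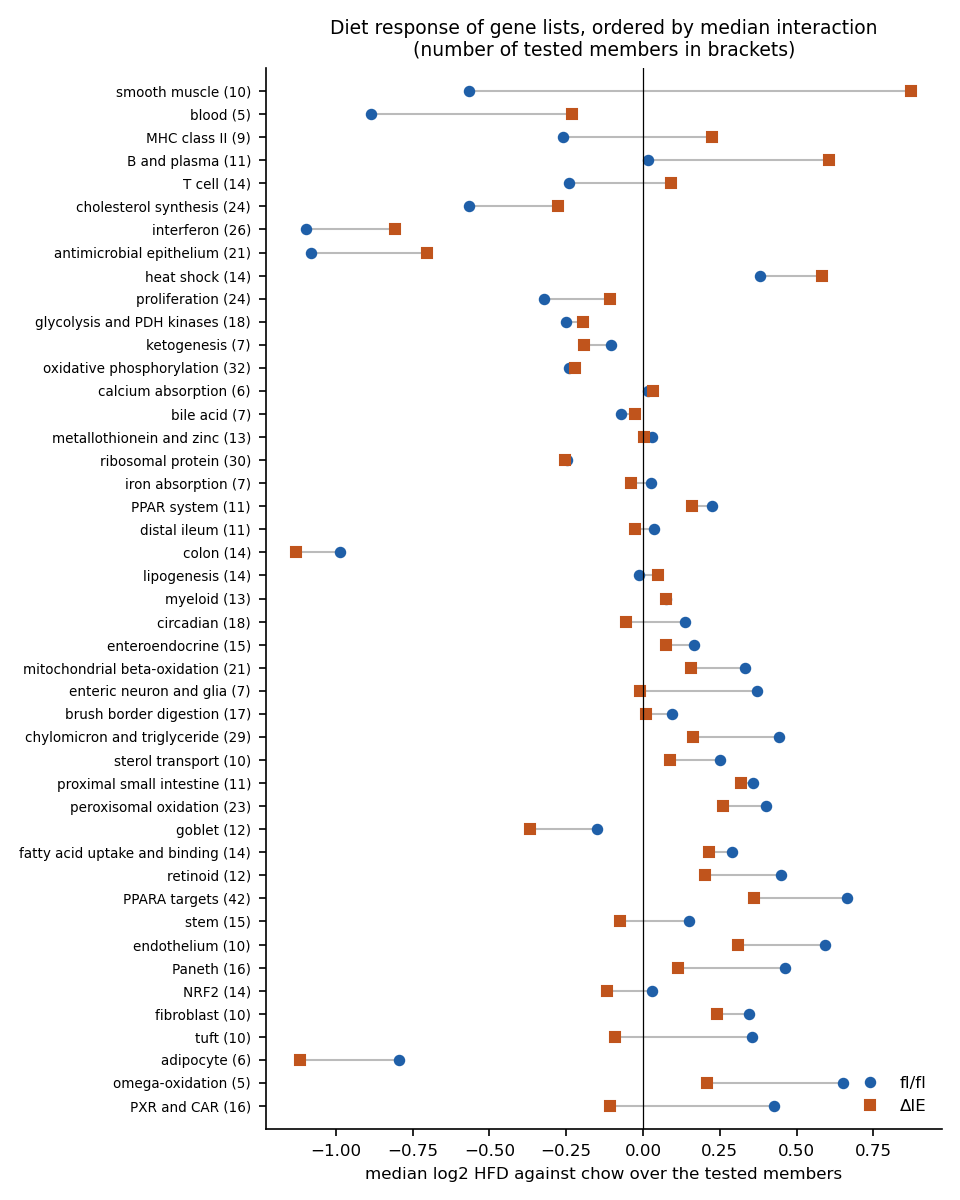
Median log2 change from chow to HFD over the tested genes of each list, in fl/fl (circles) and ΔIE (squares), ordered by the median interaction; lists with fewer than 5 genes tested are left out. Smooth muscle and MHC class II lie near the top with higher values in ΔIE, and the PXR and CAR list at the bottom with higher values in fl/fl.

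Some of the largest diet responses were called in both genotypes, and the interval of the interaction states how much difference it allows. Cd177, an antigen named for neutrophils, measured 28.5, 27.6 and 29.1 CPM in fl/fl chow and 6.59, 4.89 and 4.499 CPM in fl/fl HFD, and 29.4, 22.0 and 26.8 CPM in ΔIE chow and 4.002, 5.29 and 3.33 CPM in ΔIE HFD. The genotypes overlapped on each diet, and Cd177 fell by 2.41 and 2.63 on the log2 scale. Its interaction of -0.21 had a 95% interval of -0.71 to 0.29, and was -0.84 with the muscle score. Plet1, a surface protein of epithelial progenitors and a member of the colon list, fell in both genotypes (log2 -5.55 in fl/fl and -5.399 in ΔIE). Its chow libraries ranged from 15.9 to 98.3 CPM and the interval of its interaction from -2.32 to 2.62. Of 14 colon genes 8 fell and 2 rose in fl/fl, and 7 fell and 0 rose in ΔIE. Tac1, the substance P precursor, fell by 3.07 and 2.88 (interaction 0.19, 95% interval -0.91 to 1.29). The heat shock gene Hspa1a rose by 2.28 and 2.97 (interaction 0.69, 95% interval -0.77 to 2.15), and of 14 heat shock genes 8 rose in fl/fl and 10 in ΔIE, with 0 in the unadjusted range of the interaction. Over 30 ribosomal protein genes the interaction ran from -0.12 to 0.13 with a median of 0.01, and 32 oxidative phosphorylation genes had a median of 0.02. With the muscle score these medians were -0.28 and -0.35.

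Markers of position along the gut had wide intervals. Lct, which encodes lactase of the upper gut's brush border, measured 2.24, 2.75 and 2.01 CPM in fl/fl chow and 256, 160 and 76.2 CPM in fl/fl HFD. In ΔIE it measured 0.453, 102 and 57.6 CPM on chow and 50.2, 128 and 144 CPM on HFD. ΔIE chow 1 alone resembled fl/fl chow, and ΔIE chow 2 and 3 overlapped the HFD libraries. The interaction was -5.14 (95% interval -9.17 to -1.11, adjusted p = 0.723), and -1.27 with the proximal score, of which Lct is a member. Fgf15, the ileal bile acid hormone, measured 15.9, 16.7 and 12.1 CPM in fl/fl chow, 84.5, 116 and 108 CPM in fl/fl HFD, 15.1, 109 and 69.3 CPM in ΔIE chow and 159, 79.5 and 104 CPM in ΔIE HFD (interaction -1.97, and -1.24 with the proximal or -0.93 with the muscle score). Again ΔIE chow 1 alone resembled fl/fl chow, while ΔIE chow 2 lay within the HFD range and ΔIE chow 3 below it. For Gimd1 too ΔIE chow 1 was nearest to fl/fl chow, at 2.13, 18.1 and 11.1 CPM in ΔIE chow against 1.23 to 1.96 CPM in fl/fl chow. All its HFD libraries lay higher, at 33.9 to 44.1 CPM in fl/fl and 28.5 to 37.8 CPM in ΔIE. Its interaction was -2.93, and -1.45 with the proximal score, and edgeR called Gimd1 and Cyp3a11 without ΔIE chow 1.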

How the data were processed

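RNA-seq of intestine from 12 libraries in 4 groups of 3 was analysed, each library assigned to its group by its GEO labels. Values in the deposited table are gene-level expected counts that the authors made; per the submitters' processing notes Trimmomatic, STAR, Picard, RSEM and mm10 were used, with no versions or roles given. RNA was extracted with a column kit and made into stranded total RNA libraries, per the labels' protocols. Expected counts (12.27% to 13.2% of values per library were not whole) were rounded. Of 47643 genes, 18495 had no count, and 47224 identifiers matched the gene annotation.

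Genes passing edgeR's filterByExpr (17602) were scaled by TMM and fitted in 1 model of 4 group means with edgeR 4.0.16 (robust quasi-likelihood test, R 4.3.3). P-values were adjusted by Benjamini-Hochberg over all 17602 genes, with a threshold of 0.05. Standard errors are the estimate divided by the root of F, and 95% intervals are not adjusted for the number of genes. List scores are means of centred log2(CPM + 0.5). The members and the 46 lists were chosen with earlier results of these data known. Genes named were Ppara, the 8 smallest interaction p in each direction (established symbol, immunoglobulin genes left out, mean log2 CPM of at least 0), the 6 largest rises and falls of each diet response that passed with groups not overlapping, and the smallest interaction p of each list (up to 4 for 4 lists). Other genes named are list members picked for their role or count.

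Alternatives were DESeq2 size factors, the DESeq2 1.42.0 Wald test, limma 3.58.1 voom with sample weights by group, no filter, at least 50 counts in 3 libraries, a replicate block, unrounded counts, an adjusted p under 0.1, a proximal or a muscle score as a covariate, fl/fl chow 1 and ΔIE chow 3 left out together (each lies between the other 2 of its group in immunoglobulin likeness), and each library left out in turn. Promoter sequences came from RefSeq (GRCm38.p6). Figures were drawn with matplotlib 3.10.9. The values of 1 PPARA target are not reported here.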

Additional observations from a re-analysis of the deposited data

Results flagged for a closer look

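Ighv1-22 stood out because its diet response differed between the genotypes by the interaction term itself: the response in ΔIE minus that in fl/fl was -2.49 (log2). Its 3 fl/fl HFD libraries lay above the 3 fl/fl chow libraries, and its 3 ΔIE HFD libraries below the 3 ΔIE chow libraries. Its level was 0.492 to 2.93 CPM. Over 22 other settings its estimate kept its sign, and leaving out single libraries gave -2.82 to -2.27, with a call in 5 of 12 such fits. The immunoglobulin V genes of fl/fl chow libraries correlated at 0.909 to 0.964, above the 0.719 to 0.812 within the HFD groups, and its part in this result was not tested.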

How the results depend on the processing

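The interaction count of 1 gene was the same with DESeq2 size factors, unrounded counts and an adjusted p under 0.1. It was 57 with the DESeq2 Wald test, 4 with no filter and 67 with the muscle score as a covariate. It was 0 with limma voom (1052 at an unadjusted p under 0.05), with at least 50 counts in 3 libraries (880), with fl/fl chow 1 and ΔIE chow 3 left out (594) and with the proximal score as a covariate (688). Leaving out single libraries gave 0 to 19. The fl/fl diet count of 2353 was 3610 with voom, 458 without both chow libraries, 0 with the proximal score (1141 at an unadjusted p under 0.05) and 1037 with the muscle score, and 895 to 3089 without single libraries, the highest without ΔIE chow 1, which is in another group and enters only through the spread, scaling and filter that all libraries share. The ΔIE diet count of 1444 was 845 with voom, 185 without both chow libraries, 227 with the proximal score and 2740 with the muscle score, and 451 to 2551 without single libraries. The cause of these differences was not tested. The proximal score did not overlap between the fl/fl diets, so the fit with it also takes out diet response.

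With the replicate block the interaction, fl/fl and ΔIE counts were 0 (1112 at an unadjusted p under 0.05), 2439 and 1463. The labels give no source that a number shares. In their deviations 18 same-numbered pairs correlated at -0.11 to 0.14, with 3 over 0.1, and 36 other pairs at -0.26 to 0.23. These correlations show no pairing by number, yet they cannot exclude a shared source, so whether the numbers pair the samples is not known.

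Interactions that changed sign with the muscle score were Hspa8 (-0.043), Pou2af1 (-0.20), Pdk2 (0.18), Hspa1a (-0.62), Hspa1b (-0.67), Zbtb16 (0.33), Tac1 (-0.34) and Plet1 (-1.84). With the proximal score they were Rpl27 (-0.016), Gml2 (-0.33), Tac1 (-0.48), Mt2 (0.30), Plet1 (-0.97) and G6pc (1.58), and the fl/fl diet response turned for Ppara (-0.024), Slc27a2 (-0.13), Hadh (-0.019) and G6pc (-0.16). Without single libraries Zbtb16 ran from -0.65 to 0.11, Tac1 from -0.081 to 0.50, Gbp2 from -0.44 to 0.21, Mt2 from -0.35 to 0.27, Plet1 from -0.24 to 0.72 and G6pc from -0.52 to 0.31. Of 1032 named-gene interactions with a library left out, 998 kept direction and side of the threshold, as did 815 of 857 under the other settings. Only Ighv1-22 was called in the main fit, so for every other named gene keeping the side meant staying uncalled. Ighv1-22 kept its call in 5 of the 12 fits with a library left out. With 3 libraries a group, an interaction estimate smaller than about 0.45 (log2) did not reach an unadjusted p under 0.05 for a typical gene.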
